A study of Caenorhabditis elegans with 9 samples.

Results

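The protein genes of the mitochondrial genome were examined on 9 spotted 2-colour arrays of Caenorhabditis elegans total RNA. Every named spot whose gene lies on chromosome MT in the gene table of the WBcel235 assembly was taken, which gave 8 genes among 7200 named genes on arrays of 21888 spots. The table lists 12 protein genes on MT. Those with a named spot, 1 each, were ND1, ND2, ND3, ND4, ND5, ND6, CYTB and ATP6, and ND4L, COX1, COX2 and COX3 were not among the named spots. In the order of the table they run ND6, ND4L, ND1, ATP6, ND2, CYTB, COX3, ND4, COX1, COX2, ND3 and ND5, so that CYTB lies between ND2 and COX3 with ND4 beyond. The measured genes were 336 to 1584 bases long.

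The animal mitochondrial genome is a small circular DNA that is transcribed inside the organelle by a polymerase of its own, and its long precursor RNAs are cut into the separate mRNAs, rRNAs and tRNAs. In C. elegans all its genes are read from the same strand. Its protein genes encode core subunits of oxidative phosphorylation, while the other subunits of the same complexes are encoded in the nucleus and imported. The ND genes encode membrane subunits of complex I, which takes electrons from NADH and pumps protons, CYTB encodes the cytochrome b of complex III, and ATP6 encodes a subunit of the proton channel of ATP synthase. Oxygen is the final electron acceptor of this chain.

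The arrays comprised 3 of a hif-1 mutant, 3 of a vhl-1 mutant and 3 of wild type, and each compared an RNA called H with an RNA called N of a single genotype and replicate number. The title of the series speaks of hypoxia, and H is taken as hypoxia and N as normoxia on that basis. Alleles, age, tissue, oxygen level and duration were not stated in what was used here, nor whether replicates were separate cultures. hif-1 encodes the oxygen-regulated subunit of the hypoxia-inducible factor, and the vhl-1 product marks that subunit for degradation when oxygen is present. Neither gene had a named spot, which left no check of the mutants by their own genes. A value was present for 21296 to 21487 spots per array, the number of arrays limits the precision, and in RNA of whole extracts fewer cells of a type and less RNA per cell cannot be told apart.

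All values below are log2 ratios of H over N, set to a median of 0 on each array. The sources state no base and no direction, but the base can be read from the values. On each array a single deposited value was shared by more spots than any other, by 38 to 87 spots, where the 20 values on either side of it were held by 3.3 to 16.5 spots on average. The values exactly 1.000 above that most frequent value were held by 202 spots over the 9 arrays, against 12.1 for their surroundings, and those exactly 1.000 below by 205 spots, against 60.3. At 0.301, the step of a doubling in base 10, the counts were 85 and 102 against 77.3 and 110.4, and at 0.693, the step in natural logarithms, they were 24 and 73 against 34.4 and 83.6. Spots thus gathered at a distance of 1 unit, the step of a doubling in base 2, and not at the steps of the other bases. The direction is likely, not settled: it rests on N standing before H in the titles and on the usual reading of channel 2, the N RNA in Cy5, over channel 1, the H RNA in Cy3. In that direction F22B5.4, a gene known as a HIF-1 target, was higher in H on 3 of 3 wild type arrays, as were 19.2% of features. Its wild type mean was 2.26 ± 1.21 (SD, n = 3), with an adjusted p of 0.00813 in limma. Genes were chosen here with earlier results of these data known, so this is no independent check of the direction. Read the other way round, each value below takes the opposite sign and the tests stay as they are. No dyes were swapped: an effect of the dyes on a probe remains in the response of every genotype, and is removed from a difference between genotypes if equal in both.

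Of the 8 genes, CYTB alone passed the test in any genotype, and it was lower in H on every array with a value. The other genes, 6 of complex I and ATP6, had wild type means from -0.19 to 0.15, with values on single arrays from -0.47 (percentile 16.4 of its spots) to 0.33. In the mutants most of them moved up or down together from array to array. In the hif-1 mutant 6 of these 7 were above 0, the array median, on array 1 and all 7 below it on array 2. In the vhl-1 mutant all 7 were below 0 on arrays 1 and 3. Some of these signs depend on the centring. Relative to the most frequent value of the array, the 7 genes ran from 0.098 to 2.019 on hif-1 mutant array 1 and from -0.515 to 0.217 on its array 2. On vhl-1 mutant array 1 they then ran from -0.633 to 0.152, and on its array 3 from -0.505 to -0.023. No gene differed between genotypes beyond the spread of the arrays in the test across all features.

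**Figure D1:**
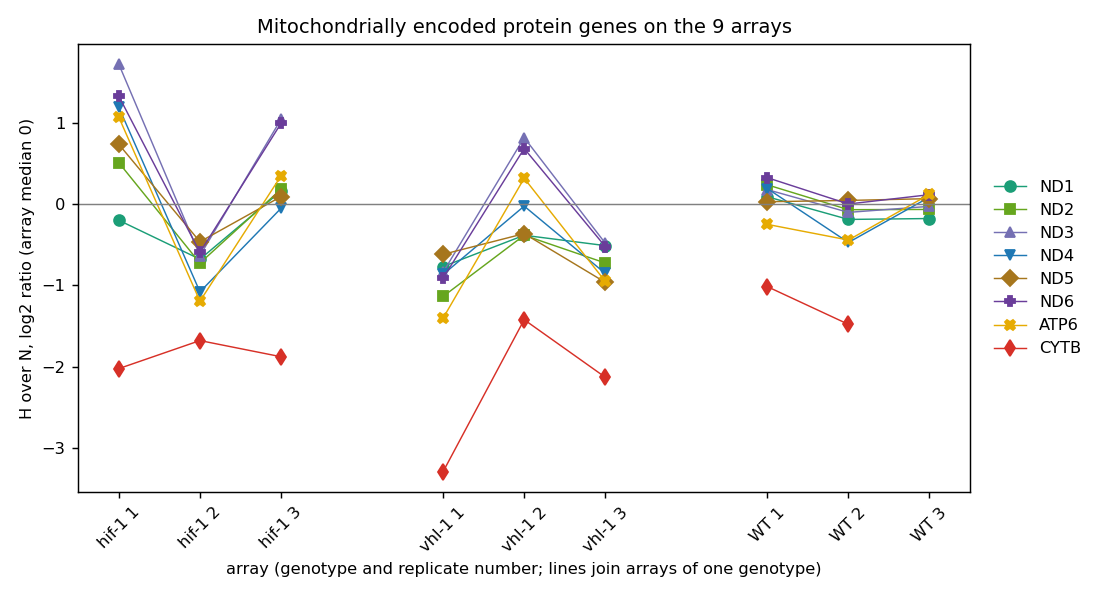
H over N log2 ratio of each mitochondrially encoded gene (vertical axis, array median 0) on each array (horizontal axis, hif-1 mutant, vhl-1 mutant and wild type); each marker is 1 gene on 1 array and lines join arrays of a genotype, whose numbers have no order. CYTB lies lowest on every array with a value, from -3.29 to -1.02, and the other 7 genes shift together, with medians from -0.87 on vhl-1 mutant array 1 to 1.07 on hif-1 mutant array 1.

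CYTB, the subunit of complex III, stood at -2.02, -1.68 and -1.88 on the 3 hif-1 mutant arrays, at -3.29, -1.42 and -2.13 on the 3 vhl-1 mutant arrays, and at -1.02 and -1.48 on wild type arrays 1 and 2. Wild type array 3 gave no value. These were among the lowest values of each array, between the percentiles 0.6 and 6.0 of all its spots. Every value was below 0, as in 5.24% of all features tested.

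Its mean was -1.86 ± 0.17 in the hif-1 mutant (SD, n = 3; SE of the fit 0.309), 3.63-fold lower in H, with an adjusted p of 0.0148 in limma. In the vhl-1 mutant it was -2.28 ± 0.94 (SD, n = 3; SE 0.309), 4.87-fold lower, with an adjusted p of 0.00121. In wild type it was -1.25 ± 0.33 (SD, n = 2; SE 0.378), with a 95% interval of -2.07 to -0.42 and an adjusted p of 0.167, and so did not pass. Over the equally weighted genotypes the mean was -1.80 (SE 0.193, adjusted p = 9.15e-05; lower on 8 of 8 arrays). Thus 1 of the 8 genes was called, and lower, in the hif-1 mutant, where 1.28% of all features were called lower and 1.75% in either direction. The same 1 gene was called in the vhl-1 mutant, where 5.15% were called lower and 9.18% in either direction, and in the mean, where 10.5% and 21.5% were. In wild type none was called, where 1.19% of features were called lower and 1.42% in either direction. CYTB was the 1 gene of the 8 with an unadjusted p under 0.05 in wild type, as had 13.1% of features.

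The size of the change in the hif-1 mutant held under the alternatives, while its call did not always. Without its array 1 CYTB stood there at -1.78 (adjusted p = 0.0586), without its array 2 at -1.95 (adjusted p = 0.0707), and with arrays scaled to the same spread at -1.78 (adjusted p = 0.0720); over all 20 alternatives that tested it the adjusted p ran from 0.00626 to 0.0720. In the vhl-1 mutant it ran from 0.00118 to 0.00991 over as many alternatives, and in wild type from 0.0717 to 0.750.

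The CYTB spot was also set beside unnamed spots. The 12 unnamed spots whose numbers follow those of the mitochondrial genes, picked after their values were seen, had a median of -1.74 over all arrays. CYTB lay within their range on 7 of 8 arrays, but that range was wide on some. It ran from -6.22 to -0.51 on wild type array 1 and from -2.25 to 3.19 on wild type array 2. On hif-1 mutant array 1, where CYTB lay outside, it ran from -1.96 to -0.90. On those 12 spots 4.63% of values were missing, against 0.873% over all named spots, and the share over all unnamed spots was not computed. On hif-1 mutant array 2 the deposited value of CYTB was exactly 1.000 above the most frequent value of that array, and 31 spots held it where the values around it were held by 0.38 on average. The 5 printing places of the mitochondrial genes had medians over all print blocks, their own included, of -0.24 to 0.37 on the 9 arrays. Spot intensities were not used here, and whether any of this bears on the low values of CYTB was not tested.

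**Figure D2:**
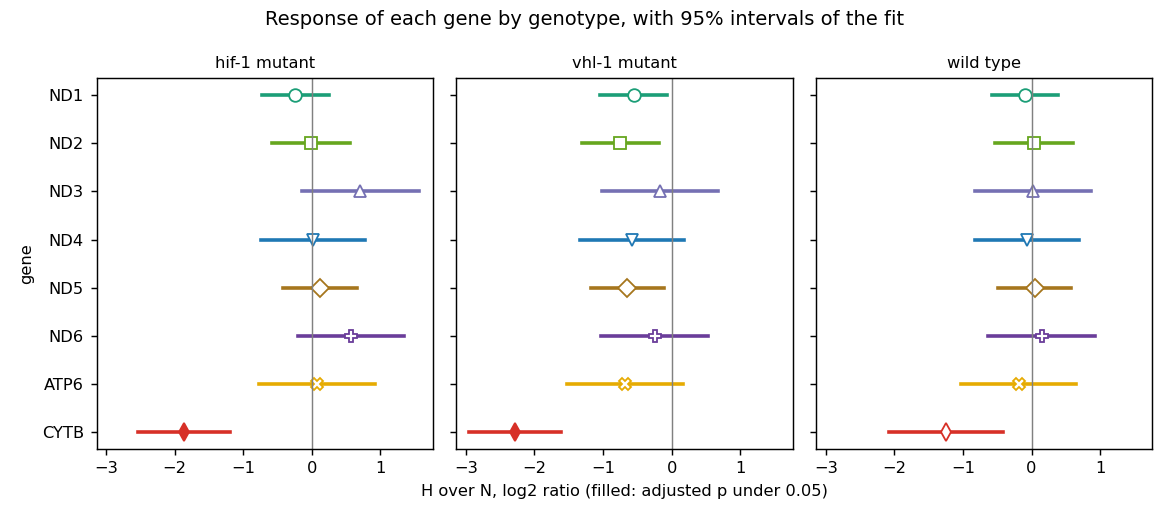
Fitted response of each gene, as H over N log2 ratio with its 95% interval (horizontal axis), in the hif-1 mutant, the vhl-1 mutant and wild type (panels); filled markers passed an adjusted p of 0.05. CYTB is filled in both mutant panels (-1.86 and -2.28) and open in wild type (-1.25), and every other gene is open.

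Among the genes of complex I, ND3 and ND6 had the highest residual SD over the arrays. ND3 was at 1.72, -0.63 and 1.04 in the hif-1 mutant, at -0.84, 0.82 and -0.48 in the vhl-1 mutant, and at 0.18, -0.10 and -0.03 in wild type. ND6 was at 1.33, -0.59 and 1.00 in the hif-1 mutant, at -0.91, 0.68 and -0.52 in the vhl-1 mutant, and at 0.33, 0.00 and 0.12 in wild type. Both genes thus reversed sign within each mutant, and their 3 wild type values lay inside the range of either mutant. The means of ND3 were 0.71 ± 1.21 in the hif-1 mutant, -0.17 ± 0.87 in the vhl-1 mutant and 0.02 ± 0.15 in wild type (SD, n = 3 each), with adjusted p of 0.329, 0.814 and 0.992. Those of ND6 were 0.58 ± 1.03 in the hif-1 mutant, -0.25 ± 0.83 in the vhl-1 mutant and 0.15 ± 0.16 in wild type (SD, n = 3 each), with adjusted p of 0.390, 0.687 and 0.905. The residual SD of ND3 over the 9 arrays was 0.867 and that of ND6 0.769, above 93.9% and 90.2% of all features.

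ND1, ND2 and ND5 moved less, and in the vhl-1 mutant each was below 0 on 3 of 3 arrays. ND2 was at 0.51, -0.73 and 0.18 in the hif-1 mutant, at -1.14, -0.38 and -0.72 in the vhl-1 mutant, and at 0.24, -0.07 and -0.06 in wild type. ND5 was at 0.74, -0.46 and 0.09 in the hif-1 mutant, at -0.62, -0.36 and -0.96 in the vhl-1 mutant, and at 0.03, 0.05 and 0.07 in wild type. ND1 was at -0.20, -0.68 and 0.16 in the hif-1 mutant, at -0.77, -0.38 and -0.51 in the vhl-1 mutant, and at 0.09, -0.19 and -0.18 in wild type. The vhl-1 mutant arrays of all 3 genes lay below every wild type array and overlapped those of the hif-1 mutant. With each array centred on its most frequent value, an alternative chosen after seeing the data, this separation from wild type held for ND2 and was lost for ND1 and ND5. That centring shifts all features of an array by the same amount. Under it 30.8% of features, and 0 of the 8 genes, lay higher in the vhl-1 mutant than in wild type without overlap. ND1 then stood at 0.00, 0.00 and -0.05 in the vhl-1 mutant and at -0.05, 0.02 and 0.00 in wild type.

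In the vhl-1 mutant the means were -0.75 ± 0.38 for ND2, -0.65 ± 0.30 for ND5 and -0.55 ± 0.20 for ND1 (SD, n = 3 each), with unadjusted p of 0.0132, 0.0212 and 0.0281 in limma. None passed the adjusted test, at adjusted p of 0.0878, 0.113 and 0.133. With CYTB, 4 of the 8 genes had an unadjusted p under 0.05 in this genotype, where 27% of all features did. That count changed with the arrays and the centring. It was 1 of 8 without vhl-1 mutant array 1 (4968 of 20858 features) and 5 of 8 without its array 2 (3511 features). With centring on the most frequent value it was 1 of 8 (8911 features). ND2 passed in 1 alternative, with array 2 of the hif-1 mutant left out (adjusted p = 0.0424); over its 21 alternatives in the vhl-1 mutant the adjusted p ran from 0.0424 to 0.584. In the hif-1 mutant and wild type the adjusted p of these 3 genes lay between 0.586 and 0.986.

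ND4 and the ATP synthase gene ATP6 varied about as much as ND3 and ND6. ND4 was at 1.19, -1.08 and -0.05 in the hif-1 mutant, at -0.87, -0.02 and -0.85 in the vhl-1 mutant, and at 0.19, -0.47 and 0.09 in wild type. ATP6 was at 1.07, -1.195 and 0.35 in the hif-1 mutant, at -1.40, 0.32 and -0.95 in the vhl-1 mutant, and at -0.25, -0.44 and 0.12 in wild type. Neither gene separated any pair of genotypes. In the vhl-1 mutant ND4 averaged -0.58 ± 0.48 and ATP6 -0.68 ± 0.89 (SD, n = 3 each), with adjusted p of 0.304 and 0.279.

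All 8 genes had their lowest mean in the vhl-1 mutant, although only CYTB passed there. Under the alternatives this changed for ND3, lowest in wild type with centring on the most frequent value, with centring by print block and without vhl-1 mutant array 1. It changed too for ND6, lowest in wild type with centring on the most frequent value, and for CYTB, lowest in the hif-1 mutant without vhl-1 mutant array 1. The median of the 8 fitted responses was 0.05 in the hif-1 mutant, -0.61 in the vhl-1 mutant and -0.02 in wild type, where the median of all features was 0.02, 0.00 and 0.01. Single arrays changed the sign of the hif-1 mutant and wild type medians: in the hif-1 mutant it was -0.26 without array 1, 0.49 without array 2 and 0.00 without array 3. In wild type it was -0.11 without array 1, 0.06 without array 2 and -0.01 without array 3, and in the vhl-1 mutant leaving out 1 array gave -0.82 to -0.44. In the vhl-1 mutant 5 of the 8 genes (CYTB, ND1, ND2, ND4 and ND5) were lower in H on every array, as were 27.2% of all features. With arrays centred on their most frequent value, 1 of the 8, CYTB, was, as were 5.86% of features. In the hif-1 mutant only CYTB was, where 19.1% of features were, and in wild type CYTB was on its 2 arrays, where 19.5% were. ND5 and ND6 were higher in H on 3 of 3 wild type arrays, as were 19.2% of features, though by no more than 0.07 and 0.33. With arrays centred on their most frequent value, ND2, ND3 and ND6 were, 3 of the 8, as were 22.4% of features.

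The differences between genotypes ask whether the response of these genes depends on HIF-1 or on its degradation through VHL-1. In the contrast of the hif-1 mutant with wild type, ND3 had the widest difference of the 8, 0.69 (95% interval -0.50 to 1.89, adjusted p = 0.937), and CYTB differed by -0.61 (-1.68 to 0.45, adjusted p = 0.937). The 3 hif-1 mutant values of CYTB lay below its 2 wild type values, as happened in 5.13% of features; with arrays centred on their most frequent value they overlapped. None of the 8 genes passed in this contrast, nor did any feature (0%), with 5.94% of features and none of the 8 genes at an unadjusted p under 0.05.

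In the contrast of the vhl-1 mutant with wild type all 8 differences were negative. Under the alternatives ND3 was positive with centring on the most frequent value (0.27), with centring by print block (0.10) and without vhl-1 mutant array 1 (0.15), and ND6 was positive with centring on the most frequent value (0.06). CYTB differed by -1.03 (SE 0.489, adjusted p = 0.504), and by -0.53 without vhl-1 mutant array 1 or with centring on the most frequent value. ND2 differed by -0.78 (95% interval -1.58 to 0.01, adjusted p = 0.498) and ND5 by -0.70 (-1.45 to 0.06, adjusted p = 0.529). For ND1, ND2 and ND5 the arrays did not overlap, 3 of 8 genes, where 9.2% of features were lower in the vhl-1 mutant without overlap; with centring on the most frequent value 1 of 8 (ND2) and 1.35% of features were. None of the 8 genes passed, where 0.00479% of features did, and 10.1% of features but none of the 8 genes had an unadjusted p under 0.05.

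Between the vhl-1 mutant and the hif-1 mutant all 8 differences were again negative, from -0.88 for ND3 to -0.32 for ND1, and ND5, at -0.77 (95% interval -1.52 to -0.01), was the 1 gene with an unadjusted p under 0.05 (adjusted p = 0.773), as had 6.41% of features. The arrays of the mutants overlapped for all 8 genes, while 11.6% of features did not overlap, and 0% of features passed. CYTB had the opposite sign in this contrast without vhl-1 mutant array 1, at 0.08. The 3 differences share arrays, so their signs are not independent of each other. The intervals are wide: for ATP6 the vhl-1 mutant minus wild type difference ran from -1.68 to 0.70, so a change of over 1 log2 unit lies inside it.

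**Figure D3:**
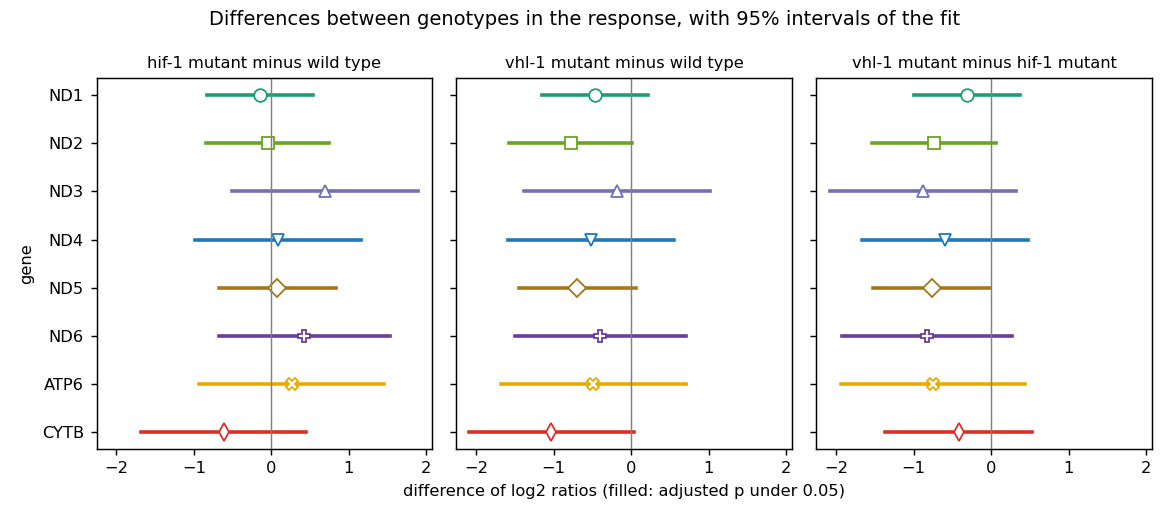
Difference in response between genotypes for each gene, in log2 units with its 95% interval (horizontal axis); panels show the hif-1 mutant minus wild type, the vhl-1 mutant minus wild type and the vhl-1 mutant minus the hif-1 mutant. Every marker is open, since no difference passed an adjusted p of 0.05, and all 8 markers lie below 0 in the panels of the vhl-1 mutant.

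The 7 genes other than CYTB kept together across arrays. On hif-1 mutant array 1 their values ran from -0.20 to 1.72 with a median of 1.07, at percentile 92.5 of all spots. On hif-1 mutant array 2 all 7 were below 0, from -1.195 to -0.46, and on array 3 their median was 0.18. On vhl-1 mutant arrays 1 and 3 all 7 were again below 0, with medians of -0.87 and -0.72 at percentiles 9.88 and 13.7. On array 2 they ran from -0.38 to 0.82. Relative to the most frequent value of the array, the 7 lay on both sides of 0 on hif-1 mutant array 2 and vhl-1 mutant array 1. On the wild type arrays their medians were 0.18, -0.10 and 0.07.

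Over the 9 arrays the Pearson correlation of these 7 genes ran from 0.63 (ND1 with ND3) to 0.98 (ND3 with ND6), with a median of 0.86 over 21 pairs. ND6 and ATP6 correlated at 0.97 and ATP6 and ND3 at 0.96, and neither pair is adjacent on MT. The pairs of the 7 that are adjacent in the gene order correlated at 0.69 (ND1 with ATP6), 0.86 (ATP6 with ND2) and 0.77 (ND3 with ND5). Whether gene order bears on these correlations was not tested. Taken as deviations from each genotype's mean, the pairs had a median of 0.88, and without hif-1 mutant array 1 of 0.82. CYTB followed the others less, with r from 0.30 to 0.60 over 8 arrays. The pairs share arrays, labelling and print region, so these values describe these arrays. ND1, ND2, ND3 and ND6 are in print block 1, and ATP6, CYTB, ND4 and ND5 in block 3. The 4 unnamed spots between or beside them, picked after the values were seen, correlated with the median of the 7 genes at 0.70 to 0.98. For other spots of these blocks no such correlation is given here.

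**Figure D4:**
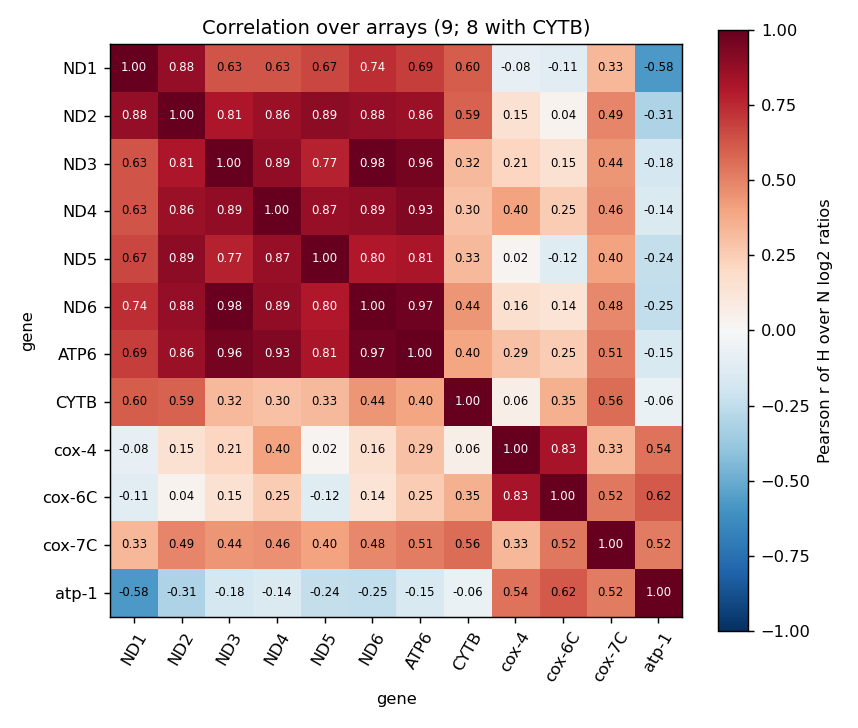
Pearson correlation over the arrays of the H over N log2 ratios of the 8 mitochondrially encoded genes and 4 nuclear genes of cytochrome c oxidase and ATP synthase (both axes, with r as colour and number). The 7 genes other than CYTB form a block of r from 0.63 to 0.98, CYTB correlates with them at 0.30 to 0.60, and the nuclear genes correlate with the 7 at -0.58 to 0.51.

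The most frequent value of each array moved with these genes too. Expressed as H over N relative to the array median it was -0.30, -0.68 and 0.16 on the hif-1 mutant arrays, -0.77, -0.39 and -0.46 on the vhl-1 mutant arrays, and 0.14, -0.20 and -0.18 on the wild type arrays. ND1 lay within 0.002 of it on 5 of 9 arrays, ND2 on 1 array and the other 6 genes on none. Its correlation with that value over the 9 arrays was 0.99 for ND1, 0.82 for ND2 and 0.54 to 0.67 for ND3, ND4, ND5, ND6 and ATP6. ND1 relative to that value was within 0.10 of 0 on all 9 arrays, so its values in each genotype are close to those of the array's most frequent value itself. Whether saturated signal, which would give a spot the same ratio whatever its RNA, placed ND1 there was not tested, since intensities were not used here.

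With each array centred on its most frequent value instead, the median of all features moved to 0.30 in the hif-1 mutant, 0.54 in the vhl-1 mutant and 0.09 in wild type. The median of the 8 genes was then 0.32 in the hif-1 mutant, -0.08 in the vhl-1 mutant and 0.06 in wild type, so in the vhl-1 mutant it still lay below that of all features. ND3 and ND6 turned to 0.37 and 0.29 in the vhl-1 mutant, and ND1, ND2, ND4, ND5 and ATP6 lay between -0.21 and -0.02 there. The hif-1 mutant mean of CYTB was -1.59 under that centring and its vhl-1 mutant mean -1.75 (adjusted p = 0.0328 and 0.00292, within the ranges given above). Taken relative to that value, the 7 other genes still correlated with a median r of 0.80.

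**Figure D5:**
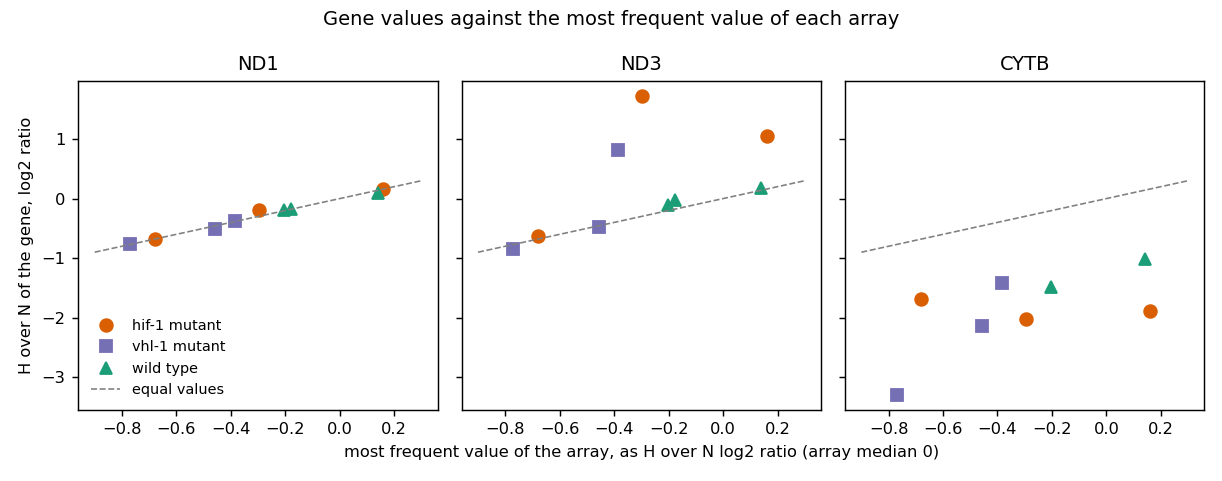
H over N log2 ratio of ND1, ND3 and CYTB (panels, vertical axis) against the most frequent value of each array in the same units (horizontal axis); each point is 1 array, marked by genotype, and the dashed line marks equal values. ND1 lies along the line (r = 0.99), ND3 lies above it on 7 of 9 arrays with 1.72 as its highest value, and CYTB lies below it on all 8 arrays.

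The nuclear genes taken for comparison correlated less with the mitochondrially encoded genes, CYTB aside, than the latter did among themselves. COX1, COX2 and COX3 were not measured, so of these nuclear genes only atp-1 shares a complex with a measured mitochondrially encoded gene, ATP6. cox-4, cox-6C and cox-7C, subunits of cytochrome c oxidase, had means of 0.04, -0.02 and 0.21 in the hif-1 mutant, of 0.26, 0.30 and 0.00 in the vhl-1 mutant, and of 0.11, 0.11 and 0.11 in wild type. atp-1, the alpha subunit of ATP synthase, was at 0.67, 1.37 and -0.57 in the hif-1 mutant, at -0.06, 0.37 and 0.78 in the vhl-1 mutant, and at -0.27, -0.48 and 0.66 in wild type. It stood at 1.37 on hif-1 mutant array 2, where all 8 mitochondrially encoded genes were below the array median. None of these 4 passed in any genotype. Their correlation with the 7 mitochondrially encoded genes ran from -0.58 to 0.51 with a median of 0.15 over 28 pairs, and among themselves from 0.33 to 0.83 over 6 pairs.

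Of 15 measured nuclear genes of the respiratory chain and ATP synthase, none passed in the hif-1 mutant or wild type, and 1 fell in the vhl-1 mutant (5.15% of all features did), with a list median of 0.21 in the hif-1 mutant, -0.06 in the vhl-1 mutant and 0.11 in wild type. The gene that fell was ndua-2, an accessory subunit of complex I, at -1.33 in the vhl-1 mutant (SE 0.372, adjusted p = 0.0426) and -0.85 in the mean over genotypes (adjusted p = 0.0150). In that mean ndub-5, another accessory subunit of complex I, rose by 0.62 (adjusted p = 0.0306), so that 2 of 15 were called there, where 21.5% of all features were. The complex I genes ndus-8 and nduv-2, added after the values were seen, lay between -0.10 and 0.18 in the 3 genotypes. Among 4 genes of the mitochondrial ribosome, which translates the mitochondrial mRNAs, mrps-18.C of the small subunit fell in the mean (-0.81, adjusted p = 0.0166), as did 10.5% of all features, and none passed in a single genotype.

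Of the genes that maintain and express mitochondrial DNA, 2 were measured and neither passed. twnk-1, the homologue of the mitochondrial DNA helicase Twinkle, was at -0.43 in the hif-1 mutant, -0.72 in the vhl-1 mutant and 0.90 in wild type (adjusted p = 0.467, 0.155 and 0.220), and lonp-1, the Lon protease of the matrix, was at -0.23 in the hif-1 mutant, 0.63 in the vhl-1 mutant and 0.25 in wild type. The import genes timm-17B.1, timm-17B.2 and tomm-70 did not pass in any genotype, at -0.21 to 0.70. The lists of mitochondrial stress and mitophagy genes, of glycolysis genes, and of germ line, body wall muscle and intestine markers had no named spot, so whether tissues rich in mitochondria differed between H and N was not tested.

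Among 6755 named nuclear genes with all 9 values, those whose pattern was most like that of CYTB over its 8 arrays were C03B1.5 (r = 0.954), K02E7.10 (0.911), C01G10.1 (0.908), cest-3 of the carboxylesterase family (0.884) and B0507.9 (0.879). Their own changes were smaller: C03B1.5 was at 0.16 in the hif-1 mutant, -0.19 in the vhl-1 mutant and 0.11 in wild type, and K02E7.10 at -0.66 in the hif-1 mutant, -1.50 in the vhl-1 mutant and -0.30 in wild type. Most like the median of the 8 mitochondrially encoded genes over 9 arrays were C34B2.9 (r = 0.964), Y116A8B.4 (0.944), srlf-17 (0.943), lcmt-1, a homologue of a leucine carboxyl methyltransferase (0.940), and C05D9.4 (0.939). These are the highest of 6755 correlations over 8 or 9 arrays and describe likeness on these arrays only.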

How the data were processed

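The 9 arrays hold RNA H in Cy3 and RNA N in Cy5, per the labels. The authors deposited 1 log ratio per spot and array, read here as log2, with array medians of -0.062 to 0.061; image analysis, background correction and normalisation were not stated in what was used here. Signs were reversed and each array was centred on its median. Cells marked null (3303) or empty (1156) were missing. Of 7774 named spots, 7741 were matched by gene identifier to the WBcel235 table.

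Spots of a gene were averaged, and the 20858 features measured on 2 or more arrays per genotype were fitted with limma 3.58.1 in R 4.3.3 (lmFit and eBayes, 1 mean per genotype, 6 residual and 6.95 prior degrees of freedom, median residual SD 0.457). The 7 contrasts were the response in each genotype, their mean and the 3 differences. Benjamini-Hochberg adjustment ran over all features, with a threshold of 0.05, and p-values measure only the spread between these samples. The fit was tested on simulated data. The text names every member, 4 nuclear comparison genes, list members that passed or else the 3 of lowest p in the mean, and the 5 genes of most similar pattern for each profile. Members and lists were chosen with earlier results of these data known. Alternatives changed centring, scaling, print position, filter, averaging, features tested, replicate block and arrays.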

Additional observations from a re-analysis of the deposited data

Results flagged for a closer look

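ND5 was below 0 on all 3 vhl-1 mutant arrays and above 0 on all 3 wild type arrays, with a difference of -0.70 on the log2 scale. Of all features, 27.2% were lower in H on every vhl-1 mutant array and 19.2% were higher in H on every wild type array. The share with both was not counted, and 9.2% lay lower in the vhl-1 mutant without overlap. The wild type values of ND5 were all within 0.07 of the array median. The difference itself was tested and did not pass in limma (SE 0.349, adjusted p = 0.529). With each array centred on its most frequent value, an alternative chosen after seeing the data, ND5 stood at 0.15, 0.02 and -0.51 in the vhl-1 mutant and at -0.11, 0.25 and 0.25 in wild type, so that the split of signs was lost and the difference was -0.24.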

How the results depend on the processing

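Over 21 alternatives and 7 contrasts, 1161 gene values were recomputed. Of these, 3 lost a call (CYTB in the hif-1 mutant), 1 gained one (ND2 in the vhl-1 mutant), and 45 changed sign, none of them past the threshold. The 1 call in the hif-1 mutant, CYTB, became 0 with arrays scaled to the same spread, and the leave-one-out count there ran from 0 to 1. In the vhl-1 mutant it ran from 1 to 2, the 2 being CYTB and ND2 without hif-1 mutant array 2. With values required on all 9 arrays, CYTB was not tested and the count was 0 in both mutants and in the mean. Without wild type array 1 or 2, CYTB had 1 wild type value, assumed to vary like the others. In all features, calls with 1 array left out ran from 60 to 354 in the hif-1 mutant (365 with all arrays), from 424 to 2679 in the vhl-1 mutant (1915) and from 61 to 386 in wild type (296); under the other alternatives they ran from 18 to 426, 302 to 5878 and 0 to 540, the 0 with named genes alone. With the replicate block CYTB was at -1.86 in the hif-1 mutant (adjusted p = 0.0170), -2.28 in the vhl-1 mutant (0.00183) and -1.21 in wild type (0.233), and the count of called genes stayed 1, 1 and 0. Same-numbered arrays showed no clear pairing: 2 of 9 correlations of deviations exceeded 0.1 (-0.204 to 0.272), and 3 of 9 arrays were closest to their own number. So few arrays cannot settle whether same-numbered ones were handled together. Dim and saturated spots could not be told from others without intensities.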

Other observations

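By spot number, 4 unnamed spots lie between or beside the mitochondrial genes, and they were picked for that position after the values were seen. Their correlation with the median of the 7 genes other than CYTB was 0.98, 0.70 and 0.84 over 9 arrays and 0.91 over 8 arrays. The first of them had means of 0.42 in the hif-1 mutant, -0.49 in the vhl-1 mutant and 0.09 in wild type. The next had the same value as ND1, within 0.0015, on 5 of 9 arrays. These spots carry no gene name in the annotation used here.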
